A study of Mus musculus with 12 samples.

Results

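Triglyceride, the storage form of fatty acids, is built in the liver by stepwise acylation of glycerol-3-phosphate, and 10 genes that encode enzymes of this route and proteins of the lipid droplet are described here. They were taken by symbol from a table of RNA-seq counts of 25611 genes: *Gpat4*, *Gpam*, *Lpin1*, *Lpin2*, *Dgat1*, *Dgat2*, *Plin2*, *Plin5*, *Cidec* and *Pnpla2*. Each symbol had 1 row, none of the 10 genes overlapped another annotated gene, and all 10 passed the filter on low counts, which left 13190 genes. Whole livers of 12 adult male C57BL/6J mice were sequenced, 4 in each of 3 groups. Sham mice had the abdomen opened without ligation or puncture, CLP mice had cecal ligation and puncture (CLP), a model of polymicrobial sepsis, and CLP+DCA mice had CLP followed by dichloroacetate (DCA), an inhibitor of the pyruvate dehydrogenase kinases. Injections were given 24 hr after surgery and livers were taken 6 hr later, at 30 hr post-surgery. No gene was deleted and no transgene was used in any group. All mice could eat standard chow freely and received saline under the skin, and food intake was not analysed here. Between 24436513 and 44266819 reads per mouse were counted.

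A glycerol-3-phosphate acyltransferase starts the route by joining a fatty acid to glycerol-3-phosphate, another acylation gives phosphatidate, lipins remove its phosphate, and a diacylglycerol acyltransferase adds the last fatty acid. The product is stored in droplets coated by perilipins, from which lipases release fatty acids again or from which it is rebuilt into very low density lipoprotein. A liver that takes up more fatty acid than it oxidises or exports accumulates such droplets, and the expression of several of these genes changes between the fed and the fasted state.

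A level is given in CPM, reads scaled to the TMM-normalized size of the library, and levels of different genes were compared only as CPM per kb of the longest coding transcript. A difference is a log2 fold change from edgeR's quasi-likelihood test fitted to all 12 mice, with its standard error (SE) and an adjusted p, by Benjamini-Hochberg over the 13190 genes. A gene was called when that p was under 0.05. The RNA came from whole liver, so that fewer cells of a type and less RNA per cell cannot be told apart.

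Hepatocyte markers, such as albumin, were abundant in every mouse, and their summed level was 53944 to 76082 CPM in sham, 26237 to 37302 CPM in CLP and 24323 to 49275 CPM in CLP+DCA. The summed level of 7 neutrophil markers was 4.53 to 5.80 CPM in sham and 27.6 to 40.1 CPM in CLP, without overlap, and *S100a8* and *S100a9* gave most of it. Of the 6 that passed the filter, 5 were higher in CLP. *Ly6g* was lower (mean 0.459 against 0.823 CPM, log2 fold change -0.78, unadjusted p = 0.0305 by edgeR). Stellate cell markers summed to 63.3 to 101 CPM in sham and 92.8 to 332 CPM in CLP, where *Des* alone gave 172 CPM in CLP replicate 3. Of these 6 markers, 5 were higher in CLP, 3 of them with an unadjusted p under 0.05 by edgeR. *Reln* was lower (log2 fold change -0.30). Summed markers of endothelium (73.7 to 97.1 CPM in sham, 98.1 to 119 CPM in CLP) and cholangiocytes (6.17 to 10.2 and 16.5 to 54.0 CPM) were higher in all CLP mice, and those of lymphocytes were lower (1.29 to 3.01 and 0.269 to 0.991 CPM). The endothelial markers differed: log2 fold changes were 2.29 for *Lyve1*, 1.11 for *Pecam1*, 0.48 for *Cdh5*, 0.06 for *Stab2* and -0.02 for *Clec4g*. *Sox9* gave most of the cholangiocyte sum in every mouse. *Krt19* and *Krt7* were at 1.44 and 1.23 in CLP versus sham, and *Epcam* was at 0.11. Among 6 macrophage markers, *Marco* was higher in all CLP mice than in all sham mice (mean 58.6 against 9.91 CPM), while the other 5 had unadjusted p of 0.309 or more. No marker of the 8 lists was at 0 reads in all mice, and the part of such shifts in the results was not tested.

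CLP+DCA replicate 3 stood apart from the other CLP+DCA mice. It had a summed hepatocyte marker level of 24323 CPM against 43193 CPM or more in the other CLP+DCA mice. Its 7 neutrophil markers summed to 53.3 CPM against at most 10.8 CPM, although its *Ly6g* (0.271 CPM) was the lowest of its group. Of 4 cholangiocyte markers, *Sox9* had 71.0 CPM in this mouse against at most 6.54 CPM, while *Krt19* (0.650 CPM) was the lowest of its group. Log2 fold changes of the members that involve this mouse are therefore also given without it where it moved them most. The summed level of 6 adipocyte markers, a check for fat attached to the tissue, was 11.7 to 19.9 CPM in sham, 8.67 to 21.0 CPM in CLP and 7.18 to 13.7 CPM in CLP+DCA. Only 2 of these 6 markers passed the filter, and neither was called in any contrast. *Lipe*, which passed, gave most of the sum in every mouse. *Adipoq* had 11 reads in sham replicate 2, 12 and 37 in CLP replicates 1 and 3, and 7 in CLP+DCA replicate 4. The other mice had no *Adipoq* reads. *Cidec* was highest in sham replicate 2 and *Pnpla2* in CLP replicate 3, and the part of attached fat in these levels was not tested.

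Across the members, *Gpat4* fell in CLP relative to sham and was the only member called in any of the 3 contrasts. *Gpam* was also lower in every CLP and CLP+DCA mouse than in every sham mouse, but did not pass the test. Of all genes tested, 26.5% separated CLP from sham without overlap in either direction, and 9.76% separated CLP+DCA from sham. The droplet coat gene *Plin5* was 1.71-fold of sham in CLP and *Lpin1* was 2.31-fold of sham in CLP+DCA, neither past the test. *Dgat1*, *Dgat2* and *Pnpla2* had log2 fold changes between -0.21 and 0.10 in all contrasts.

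**Figure D1:**
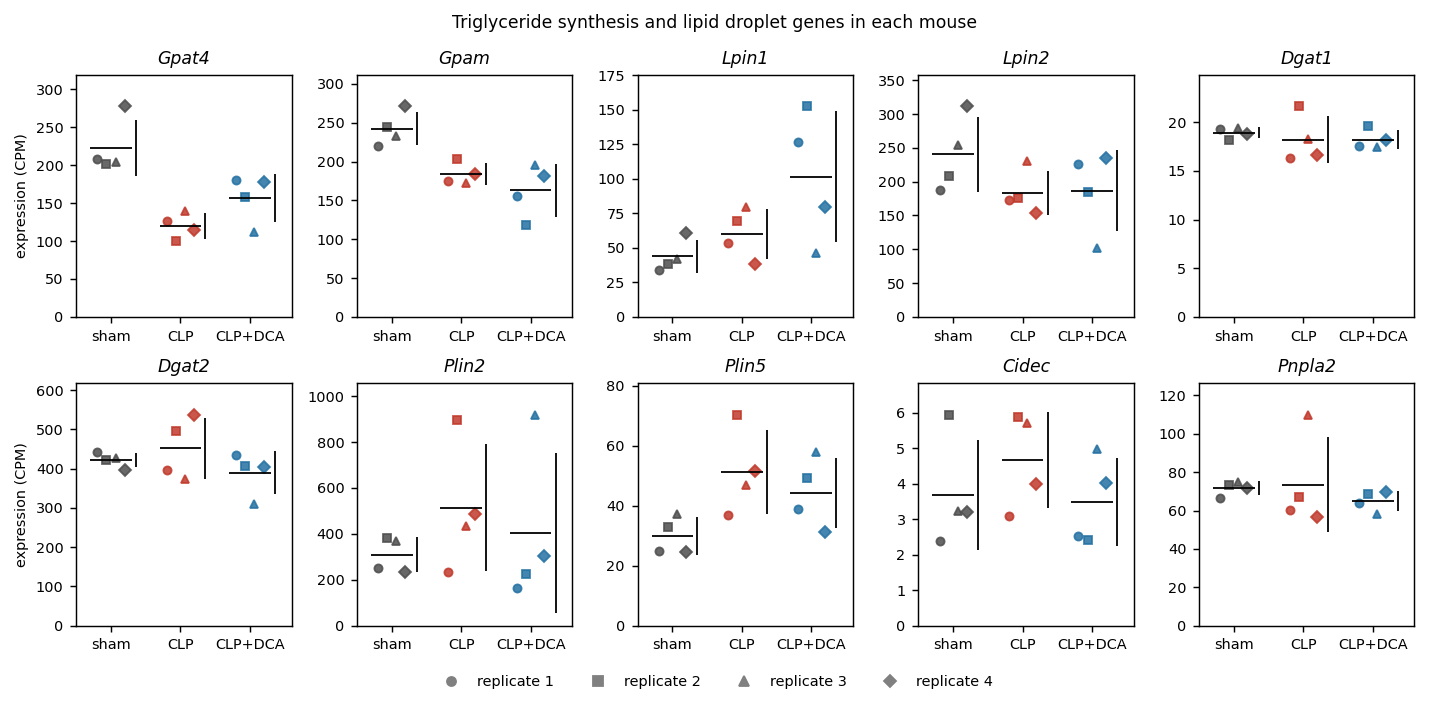
Expression in CPM of the 10 members in each mouse, by group (4 mice each, symbols give the replicate number). Horizontal lines are means and vertical lines SD. *Gpat4* and *Gpam* of the CLP and CLP+DCA mice lie below all 4 sham mice, and *Lpin1* and *Plin2* spread widely in CLP+DCA.

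The promoters of *Gpam*, *Plin5* and *Lpin1* are shown because these were the members besides *Gpat4* that any of the alternative tests called against sham. RefSeq's promoter table for GRCm38.p6, the build of the counts (mm10), held 7 of the 10 members. The 250 bases before the gene start are printed 5′ to 3′ along the gene, which lies on the minus strand in all 3 cases. Capitals mark the CCAAT box, CCAAT or ATTGG where it lies on the other strand, and the half-site of nuclear receptors, AGGTCA, searched on both strands.

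Gpam promoter, chr19:55127239-55127488, minus strand: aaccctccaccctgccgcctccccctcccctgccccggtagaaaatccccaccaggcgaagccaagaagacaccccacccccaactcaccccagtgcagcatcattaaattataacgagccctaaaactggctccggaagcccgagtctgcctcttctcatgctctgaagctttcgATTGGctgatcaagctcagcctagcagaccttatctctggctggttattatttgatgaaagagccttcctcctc
Plin5 promoter, chr17:56117549-56117798, minus strand: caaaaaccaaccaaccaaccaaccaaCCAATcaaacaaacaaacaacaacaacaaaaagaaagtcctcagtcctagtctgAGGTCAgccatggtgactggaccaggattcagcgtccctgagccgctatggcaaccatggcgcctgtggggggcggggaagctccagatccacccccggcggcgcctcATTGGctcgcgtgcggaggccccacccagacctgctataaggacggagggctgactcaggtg
Lpin1 promoter, chr12:16610967-16611216, minus strand: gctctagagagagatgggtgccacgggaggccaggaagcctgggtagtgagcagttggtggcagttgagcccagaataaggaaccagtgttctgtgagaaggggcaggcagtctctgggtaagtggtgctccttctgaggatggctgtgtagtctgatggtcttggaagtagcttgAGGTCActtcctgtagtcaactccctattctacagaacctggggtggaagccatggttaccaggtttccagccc

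A CCAAT box, which many promoters carry, began 74 bases before the start of *Gpam*, and 224 and 62 bases before the start of *Plin5*. The *Lpin1* window held none. Of the 32851 promoter windows of this length in the table, 33.8% held one. The half-site AGGTCA began 170 bases before the start of *Plin5* and 74 bases before that of *Lpin1*, was not found in the *Gpam* window and was held by 14% of all windows. Other motifs searched on both strands and not found in these 3 windows were the sterol response element TCACNCCAC, which 1.05% of all windows held, the E-box CACGTG (6.02%) and the STAT site TTCNNNGAA (7.02%). No 2 of the motifs found in these 3 windows overlapped. RefSeq also lists another promoter each for *Gpam* and *Plin5*, at a start other than that of the counted gene. The half-site began 196 bases before that other start of *Gpam*, and the other *Plin5* window held none of the motifs. A match is a description of these letters only.

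The first step of synthesis has 2 acyltransferases among the members, of which *Gpat4* fell in CLP. *Gpat4* (NCBI Gene 102247, chromosome 8 from 23172946 to 23208453), an enzyme of the endoplasmic reticulum that can move onto growing lipid droplets, had 208, 202, 205 and 278 CPM in sham replicates 1 to 4. It had 126, 99.8, 140 and 115 CPM in CLP and 180, 158, 111 and 178 CPM in CLP+DCA. Every CLP and every CLP+DCA mouse was below the lowest sham mouse, and CLP+DCA replicate 3 was within the CLP range while the other CLP+DCA mice were above all CLP mice.

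Mean *Gpat4* was 223 ± 36.7 CPM in sham, 120 ± 16.9 CPM in CLP and 157 ± 32.0 CPM in CLP+DCA (SD, n = 4 each). In CLP versus sham the log2 fold change was -0.89 (SE 0.17, adjusted p = 0.0325). Thus 1 of 10 members was called, beside 2.78% of all genes tested, and 3 members had an unadjusted p under 0.05 (28.6% of all genes). The call was lost when any single sham mouse was left out (adjusted p = 0.0761 to 0.0862) or CLP replicate 1 (0.0674), 2 (0.109) or 4 (0.0965), with log2 fold changes from -0.94 to -0.77 in those fits. With DESeq2 on the 8 mice compared, which called 23.2% of the genes it tested, the adjusted p was 1.53e-07 and 3 members were called, and DESeq2 on all 12 mice called 2 members beside 13.4% of genes. Summed hepatocyte markers were lower in all CLP mice than in all sham mice too. Of the 6 markers, albumin, which gave most of the sum, and *Ttr* separated the groups, while *Apoa1*, *Cps1*, *Asgr1* and *Tat* overlapped (log2 fold changes of -0.21, -0.89, -0.17 and -0.33). Their part in the lower *Gpat4* was not tested.

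CLP+DCA versus CLP gave a *Gpat4* difference of 0.39 (SE 0.17, adjusted p = 0.497), and CLP+DCA versus sham gave -0.51 (SE 0.17, adjusted p = 0.301). Without CLP+DCA replicate 3 these were 0.52 (adjusted p = 0.0567) and -0.37 (adjusted p = 0.462) by edgeR. None of the 10 members was called in CLP+DCA versus CLP, where 0.00758% of all genes were, and 1 member, *Gpat4*, had an unadjusted p under 0.05 and was higher (5.06% of all genes were higher and 4.94% lower at that level). Against sham, none was called in CLP+DCA either, beside 0.0379% of all genes, and 4 members had an unadjusted p under 0.05 (13.0% of all genes). DESeq2 on the 8 mice of each comparison called no member in these 2 contrasts, beside 0.615% of genes against CLP and 1.19% against sham. DESeq2 on all 12 mice called no member against CLP (0.875% of genes) and called *Gpam* and *Lpin1* against sham (1.79% of genes). The contrasts share mice, so that their values are not independent.

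*Gpam* (NCBI Gene 14732, chromosome 19 from 55067636 to 55127238), which encodes the glycerol-3-phosphate acyltransferase of the outer mitochondrial membrane, had 221, 244, 233 and 271 CPM in sham. Its values were 175, 203, 172 and 184 CPM in CLP and 155, 119, 196 and 181 CPM in CLP+DCA. All 8 CLP and CLP+DCA mice were below all 4 sham mice. The log2 fold change was -0.40 in CLP versus sham (SE 0.15, adjusted p = 0.111) and -0.57 in CLP+DCA versus sham (SE 0.15, adjusted p = 0.230). Between CLP+DCA and CLP it was -0.17 (95% interval -0.50 to 0.15). Without CLP+DCA replicate 3 the differences of *Gpam* in CLP+DCA were -0.68 from sham and -0.27 from CLP, and without CLP+DCA replicate 2 the latter was -0.060.

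*Gpat4* and *Gpam* were the 2 members whose CLP mice lay wholly outside the sham range, beside 26.5% of all genes. The same 2 lay outside it in CLP+DCA, beside 9.76% of all genes, and no member separated CLP+DCA from CLP, where 4.37% of all genes did. In CLP versus sham, *Gpam* was past the threshold with edgeR or DESeq2 on the 8 mice compared (adjusted p = 0.0301 and 0.000494), with voom (0.0359) and without CLP+DCA replicate 3 (0.0438), and not with the other 16 of 20 alternatives. The ratio of *Gpam* to *Gpat4* CPM within a mouse was 0.976 to 1.21 in sham and 1.23 to 2.03 in CLP, without overlap. On the log2 scale the ratio was 0.49 higher in CLP (two-sided exact permutation test, p = 0.0286, adjusted p = 0.143 over 15 ratio tests). An exact test of 4 against 4 mice cannot give a p below 0.0286. In CLP+DCA the ratio was 0.752 to 1.02 in replicates 1, 2 and 4 and 1.76 in replicate 3, so that only replicate 3 was in the CLP range.

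The profiles nearest to *Gpat4* over the 12 mice, by the root mean square difference of log2 CPM less the sham mean, included those of *Tdp2* (0.154) and *Akr1c12* (0.161). *Gpat4* itself differed from its sham mean by a root mean square of 0.635, and the median difference of all genes from the *Gpat4* profile was 0.695. *Tdp2*, a DNA repair phosphodiesterase, had a log2 fold change of -0.91 in CLP versus sham (SE 0.16, adjusted p = 0.0255), and *Akr1c12*, an aldo-keto reductase, had -0.80 (SE 0.20, adjusted p = 0.0525 by edgeR). These genes were chosen for their likeness, so that their changes are a description.

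**Figure D2:**
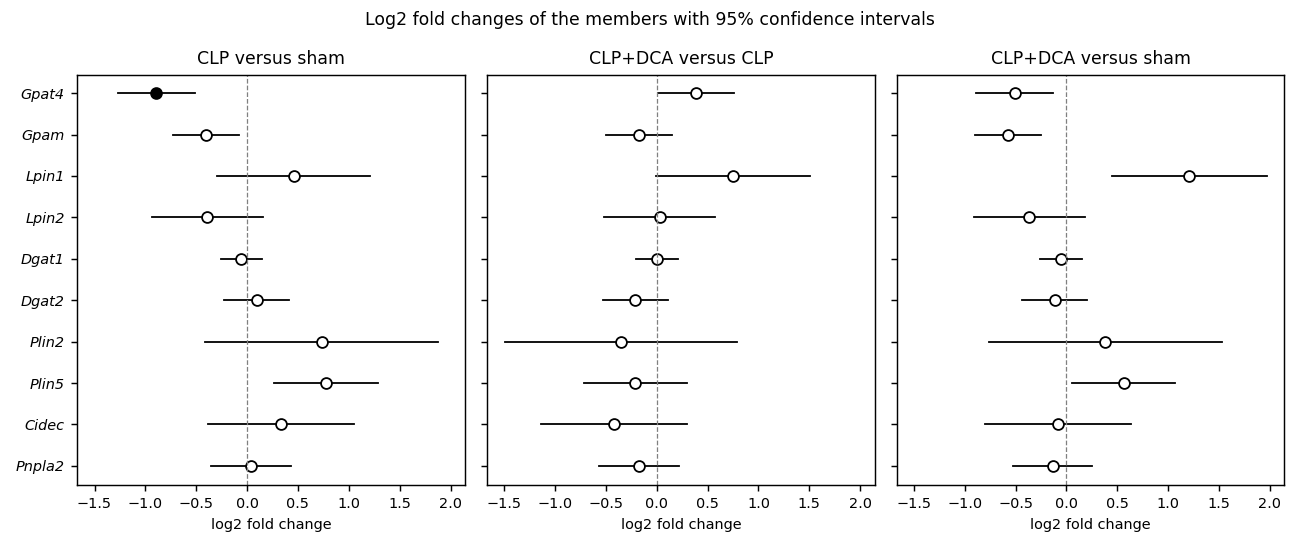
Log2 fold changes of the 10 members in the 3 contrasts, with lines for the 95% confidence interval of edgeR's quasi-likelihood test on all 12 mice. The filled point marks the member with an adjusted p under 0.05, *Gpat4* in CLP versus sham at -0.89, and the interval of *Plin2* is the widest in each panel.

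The lipins, phosphatidate phosphatases that make the diacylglycerol for triglyceride, had log2 fold changes of opposite sign in CLP versus sham, neither of them called. *Lpin1* (NCBI Gene 14245, chromosome 12 from 16535669 to 16610966), whose protein also acts as a nuclear coactivator of fatty acid oxidation genes, had 33.9, 38.6, 42.1 and 61.0 CPM in sham. It had 53.7, 69.3, 79.8 and 38.2 CPM in CLP and 127, 153, 46.5 and 79.6 CPM in CLP+DCA. All groups overlapped, and CLP+DCA replicates 1 and 2 had the highest levels of the 12 mice.

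*Lpin1* had log2 fold changes of 0.46 in CLP versus sham (SE 0.35, adjusted p = 0.380), 0.75 in CLP+DCA versus CLP (SE 0.35, adjusted p = 0.498) and 1.21 in CLP+DCA versus sham (SE 0.35, adjusted p = 0.265). Without CLP+DCA replicate 3, the differences of CLP+DCA from CLP and from sham were 0.99 (adjusted p = 0.0656) and 1.45 (adjusted p = 0.148). The difference from sham was past the threshold with DESeq2 on all 12 mice (adjusted p = 0.0382) and with voom and sample quality weights (0.00576). In CLP versus sham, *Lpin1* was at 0.29 without CLP replicate 3.

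*Lpin2* (NCBI Gene 64898, chromosome 17 from 71183978 to 71249818), the lipin with the higher level per kb in this liver, had 188, 208, 254 and 312 CPM in sham. Its values in CLP were 173, 176, 231 and 154 CPM, and those in CLP+DCA were 226, 185, 102 and 234 CPM. The lowest of the 12 values was that of CLP+DCA replicate 3, and CLP overlapped sham. The log2 fold change was -0.39 in CLP versus sham (SE 0.25, adjusted p = 0.304), 0.03 in CLP+DCA versus CLP (95% interval -0.52 to 0.57) and -0.36 in CLP+DCA versus sham (SE 0.25, adjusted p = 0.528). *Lpin2* in CLP+DCA differed by 0.23 from CLP and by -0.16 from sham without CLP+DCA replicate 3. Without sham replicate 4, the differences of CLP and CLP+DCA from sham were -0.24 and -0.21.

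Within a mouse, *Lpin1* was 0.166 to 0.196 of the *Lpin2* CPM in sham, 0.249 to 0.394 in CLP and 0.340 to 0.824 in CLP+DCA. No CLP or CLP+DCA mouse overlapped sham, although each gene alone did. The log2 ratio was 0.82 higher in CLP than in sham and 1.51 higher in CLP+DCA than in sham, each with p = 0.0286 in a two-sided exact permutation test and an adjusted p of 0.143 over the 15 ratio tests. Between CLP+DCA and CLP it differed by 0.69 (exact permutation test, p = 0.0857, adjusted p = 0.321), with overlap between the groups. CLP+DCA replicate 3, at 0.454, was above all 4 CLP mice in this ratio, whereas its *Lpin1* and *Lpin2* levels were both the lowest of its group. Without that mouse the log2 ratio differed by 0.75 from CLP and by 1.57 from sham.

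**Figure D3:**
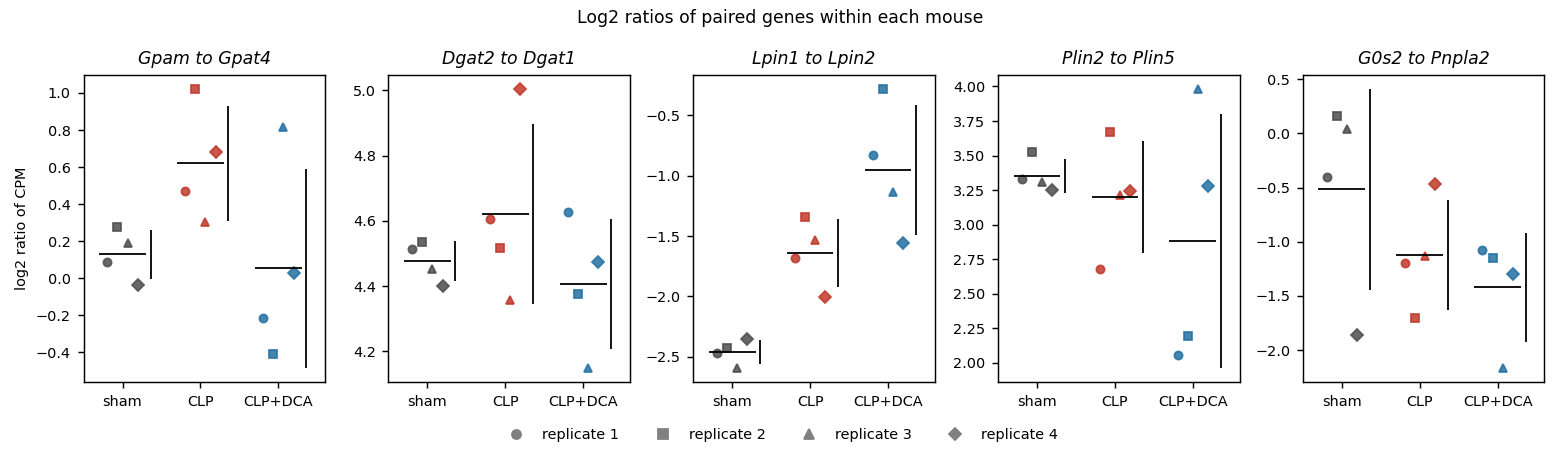
Log2 ratios of CPM for 5 gene pairs within each mouse, by group (4 mice each), with means (horizontal lines) and SD (vertical lines). *Lpin1* to *Lpin2* is higher in all CLP and CLP+DCA mice than in sham (log2 ratios of -2.59 to -2.35), while *Dgat2* to *Dgat1* overlaps between all groups; the vertical axes differ between panels.

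The diacylglycerol acyltransferases catalyse the last step by unrelated proteins, and neither was called in any contrast. *Dgat1* (NCBI Gene 13350, chromosome 15 from 76502012 to 76511994) was 18.1 to 19.4 CPM in sham, 16.3 to 21.6 CPM in CLP and 17.4 to 19.6 CPM in CLP+DCA. Its log2 fold change was -0.06 in CLP versus sham (95% interval -0.26 to 0.15, adjusted p = 0.710), the narrowest interval among the members. *Dgat2* (NCBI Gene 67800, chromosome 7 from 99153663 to 99182713) was 397 to 442 CPM in sham, 375 to 537 CPM in CLP and 311 to 436 CPM in CLP+DCA. The lowest of these was CLP+DCA replicate 3. Its log2 fold changes were 0.10 in CLP versus sham (95% interval -0.22 to 0.42) and -0.21 in CLP+DCA versus CLP (95% interval -0.53 to 0.11). Without CLP+DCA replicate 3 the latter was -0.12, and without CLP replicate 4 the former was 0.0021. With library size alone as the scaling, which moved the median of all genes in CLP versus sham from 0.02 to -0.15, *Dgat2* was at -0.09. The log2 ratio of *Dgat2* to *Dgat1* differed by 0.14 between CLP and sham (exact permutation test, p = 0.429).

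The droplet coat genes were higher on average in CLP, with a wide spread between mice. *Plin2* (NCBI Gene 11520, chromosome 4 from 86656565 to 86670059), which encodes the main perilipin of hepatocyte droplets and is stabilised as a protein by lipid, had 249, 381, 371 and 236 CPM in sham. It had 236, 897, 436 and 488 CPM in CLP and 162, 226, 918 and 304 CPM in CLP+DCA. CLP replicate 2 and CLP+DCA replicate 3 were far above the other mice, and CLP replicate 1 was at the level of the lowest sham mouse.

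Log2 fold changes of *Plin2* were 0.73 in CLP versus sham (SE 0.53, adjusted p = 0.357), -0.35 in CLP+DCA versus CLP (SE 0.52, adjusted p = 0.853) and 0.38 in CLP+DCA versus sham (SE 0.52, adjusted p = 0.749). The first of these was 0.32 (adjusted p = 0.745) without CLP replicate 2. CLP+DCA replicate 3 decided the direction of the last: without it, the difference from sham was -0.42 (adjusted p = 0.806) and that from CLP was -1.16 (adjusted p = 0.0963), by edgeR's quasi-likelihood test.

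*Plin5* (NCBI Gene 66968, chromosome 17 from 56111601 to 56117548) encodes the perilipin that ties droplets to mitochondria in tissues that oxidise fat. Its values were 24.8, 33.0, 37.4 and 24.7 CPM in sham, 36.8, 70.3, 47.0 and 51.5 CPM in CLP and 38.9, 49.3, 57.9 and 31.2 CPM in CLP+DCA. Of the 4 CLP mice, 3 were above all sham mice, and CLP replicate 1 was just under the highest sham mouse.

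*Plin5* had a log2 fold change of 0.78 in CLP versus sham (SE 0.23, adjusted p = 0.0752), -0.21 in CLP+DCA versus CLP (SE 0.23, adjusted p = 0.792) and 0.57 in CLP+DCA versus sham (SE 0.23, adjusted p = 0.341). Without CLP+DCA replicate 3 the differences of CLP+DCA were -0.37 from CLP and 0.41 from sham, and without CLP replicate 2 that from CLP was -0.022. The difference of CLP from sham was past the threshold in 5 of the 20 alternatives, among them edgeR without CLP+DCA replicate 3 (adjusted p = 0.0259) and DESeq2 on all 12 mice (0.0228). The ratio of *Plin2* to *Plin5* overlapped between all groups, and its log2 value differed by -0.15 between CLP and sham (exact permutation test, p = 0.571).

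*Cidec* (NCBI Gene 14311, chromosome 6 from 113424634 to 113435760), which encodes a protein of droplet fusion, was the member with the lowest mean level per kb in each group. It was between 2.38 and 5.94 CPM in every mouse (64 to 240 reads). Its log2 fold changes were 0.33 in CLP versus sham (SE 0.33, adjusted p = 0.507), -0.42 in CLP+DCA versus CLP (SE 0.33, adjusted p = 0.705) and -0.09 in CLP+DCA versus sham (SE 0.33, adjusted p = 0.915). Without CLP+DCA replicate 3 the differences of CLP+DCA were -0.64 from CLP and -0.31 from sham. The difference of CLP from sham was 0.66 without sham replicate 2, the highest *Cidec* value of the 12 mice, and 0.17 without sham replicate 1.

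*Pnpla2* (NCBI Gene 66853, chromosome 7 from 141455188 to 141460743) encodes adipose triglyceride lipase, which starts the breakdown of stored triglyceride. It had 66.3, 73.3, 74.7 and 72.0 CPM in sham, 60.1, 67.0, 110 and 56.8 CPM in CLP and 63.8, 68.6, 58.4 and 69.7 CPM in CLP+DCA. CLP replicate 3 was above all other mice, and the remaining CLP mice were within or below the sham range. In CLP versus sham the log2 fold change was 0.04 (95% interval -0.35 to 0.43, adjusted p = 0.901), and without CLP replicate 3 it was -0.22. Under library size alone and with voom it was -0.11 and -0.10.

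The inhibitor and the coactivator of this lipase were measured beside it. *G0s2*, the inhibitor, had 50.0, 82.2, 76.9 and 19.8 CPM in sham, 26.3, 20.5, 50.1 and 41.1 CPM in CLP and 30.3, 30.9, 13.0 and 28.3 CPM in CLP+DCA, with log2 fold changes of -0.73 (SE 0.43, adjusted p = 0.271) in CLP and -1.16 (SE 0.43, adjusted p = 0.319) in CLP+DCA versus sham. *Abhd5*, the coactivator, was 25.6 to 36.8 CPM over all 12 mice and differed by -0.17 between CLP and sham (SE 0.11, adjusted p = 0.290). The log2 ratio of *G0s2* to *Pnpla2* was 0.61 lower in CLP and 0.91 lower in CLP+DCA than in sham (exact permutation tests, p = 0.343 and 0.143), with overlap. Without sham replicate 4 the ratio was at -1.06 in CLP versus sham, and without sham replicate 2 it was at -0.38.

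Per kb of transcript, *Dgat2* (187 ± 8.36 CPM per kb) and *Plin2* (164 ± 41.0) had the highest levels in sham (SD, n = 4) and overlapped each other. Below them came *Lpin2* (42.6 ± 9.77), *Gpat4* (40.4 ± 6.65) and *Gpam* (39.3 ± 3.49), which also overlapped as neighbours. *Pnpla2* (27.3 ± 1.40), *Plin5* (15.1 ± 3.16) and *Dgat1* (9.61 to 10.3 over the 4 mice) followed without overlap between them, then *Lpin1* (7.87 ± 2.13), which overlapped *Dgat1*, and *Cidec* (2.14 ± 0.903). In CLP, *Gpat4* (21.8 ± 3.06 CPM per kb) was the 7th of the 10 genes, below *Gpam* (29.7 ± 2.27), *Pnpla2* and *Plin5* in the mean, although its mice overlapped those of *Plin5* and *Pnpla2*, and *Lpin1* (10.8 ± 3.26) was above *Dgat1* (9.64 ± 1.29) with overlapping mice. In CLP+DCA, *Gpat4* (28.4 ± 5.80 CPM per kb) was 4th in the mean and *Lpin1* reached 18.2 ± 8.51. There, each gene from *Lpin2* down to *Lpin1* overlapped the next below it. In *Gpat4*, every CLP+DCA mouse stayed below every sham mouse.

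Set side by side by mouse, the members did not move as 1 group. CLP+DCA replicate 3 was at -0.99 for *Gpat4* and at 1.60 for *Plin2* in log2 CPM less the sham mean, and the other CLP+DCA mice were between -0.49 and -0.29 for *Gpat4*. The median log2 fold change of the 10 members was 0.07 in CLP versus sham, -0.17 in CLP+DCA versus CLP and -0.10 in CLP+DCA versus sham, and that of all genes tested was 0.02, 0.01 and 0.01.

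**Figure D4:**
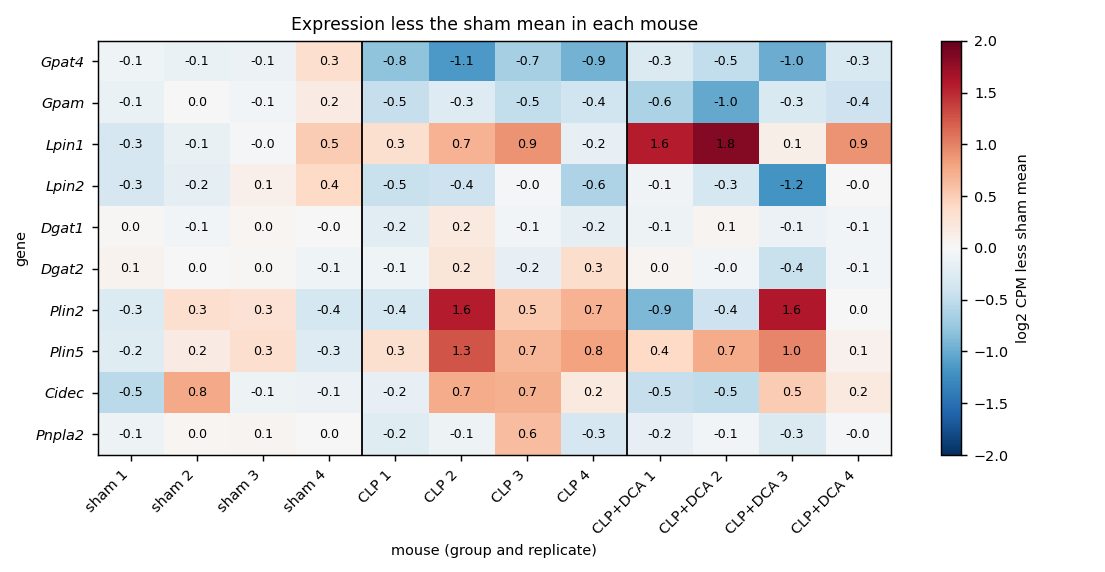
Log2 CPM of the 10 members (rows) in each of the 12 mice (columns), less the mean of the 4 sham mice. Red is above and blue below that mean; CLP+DCA replicate 3 differs from the other CLP+DCA mice in *Gpat4*, *Lpin2* and *Plin2*.

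Other genes of lipid storage were counted in 5 lists of 85 genes, of which 83 could be tested. Between CLP and sham, 41 were higher and 42 lower, and 1 was called, while 14 higher and 13 lower genes had an unadjusted p under 0.05 (28.6% of all genes). The called gene was *Srebf1*, which encodes SREBP1, a driver of lipid synthesis. It had 346, 337, 356 and 305 CPM in sham, 140, 45.2, 90.8 and 73.9 CPM in CLP and 266, 189, 51.3 and 256 CPM in CLP+DCA. It fell by 1.94 on the log2 scale in CLP versus sham (SE 0.45, adjusted p = 0.0475), and the call was lost in 12 of its 20 alternatives. In CLP+DCA versus CLP, *Srebf1* was at 1.12 (SE 0.44, adjusted p = 0.437) and at 1.44 (adjusted p = 0.0281) without CLP+DCA replicate 3, all by edgeR's quasi-likelihood test. Leaving out that mouse also raised the number of all genes called in this contrast from 1 to 616.

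Of 18 other genes of triglyceride synthesis, none was called in any contrast, and 4 higher and 1 lower had an unadjusted p under 0.05 in CLP versus sham (median log2 fold change 0.08). *Acsl5*, an acyl-CoA synthetase, was at -0.53 in CLP versus sham (adjusted p = 0.0755) and at -0.68 in CLP+DCA versus sham (adjusted p = 0.225 by edgeR). Its CLP and CLP+DCA mice did not overlap sham, beside 26.5% and 9.76% of all genes in either direction. *Agpat3*, an acyltransferase of the second step, was at 0.31 in CLP versus sham (adjusted p = 0.0864). Of 20 tested genes of the droplet and of lipolysis, 14 were lower and 6 higher in CLP (median -0.22), none called. *Ldah*, a droplet hydrolase, was at -0.38 (adjusted p = 0.0761), *Faf2*, a droplet-associated factor of protein degradation, at 0.31 (adjusted p = 0.102), and *Hilpda*, a lipase inhibitor, at 1.03 (adjusted p = 0.317) with 1.02 to 2.01 CPM in sham and 11.8 CPM in CLP+DCA replicate 3.

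Of 15 genes of fatty acid uptake and triglyceride export, 9 were higher and 6 lower in CLP versus sham (median 0.26), none called. *Lipc*, the hepatic lipase, was at -1.89 (SE 0.51, adjusted p = 0.0634), and *Pla2g12b*, a factor of lipoprotein secretion, was at 0.51 (SE 0.15, adjusted p = 0.0752). Among 16 regulators, 11 were lower and 5 higher (median -0.27). At an unadjusted p under 0.05, 8 regulators were lower, *Srebf1* included, and 2 higher, beside 1733 lower and 2039 higher of all 13190 genes. Among 14 PPARα targets, 10 were higher (median 0.23), none called. *Angptl4*, an inhibitor of lipoprotein lipase, was at 1.25 (SE 0.30, adjusted p = 0.0516), and *Pdk4*, a pyruvate dehydrogenase kinase, was at 4.03 (SE 1.14, adjusted p = 0.0695) with 2.67 to 151 CPM in the CLP mice and 2.57 to 3.01 CPM in sham. Without CLP replicate 3, the highest of these, *Pdk4* was at 1.85 (adjusted p = 0.124).

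Of the 83 genes, 35 were higher and 48 lower in CLP+DCA than in CLP, and 32 were higher and 51 lower than in sham. None was called in either contrast by edgeR. At an unadjusted p under 0.05, 4 were higher and 8 lower in CLP+DCA than in CLP (5.06% and 4.94% of all genes), and 2 were higher and 10 lower than in sham (13.0% of all genes in either direction). DESeq2 on the 8 mice compared called 1 and 4 of them, beside 0.615% and 1.19% of all genes it tested. The PPARα targets had a median of -0.39 in CLP+DCA versus CLP and -0.07 in CLP+DCA versus sham, and the regulators had 0.17 and -0.20.

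**Figure D5:**
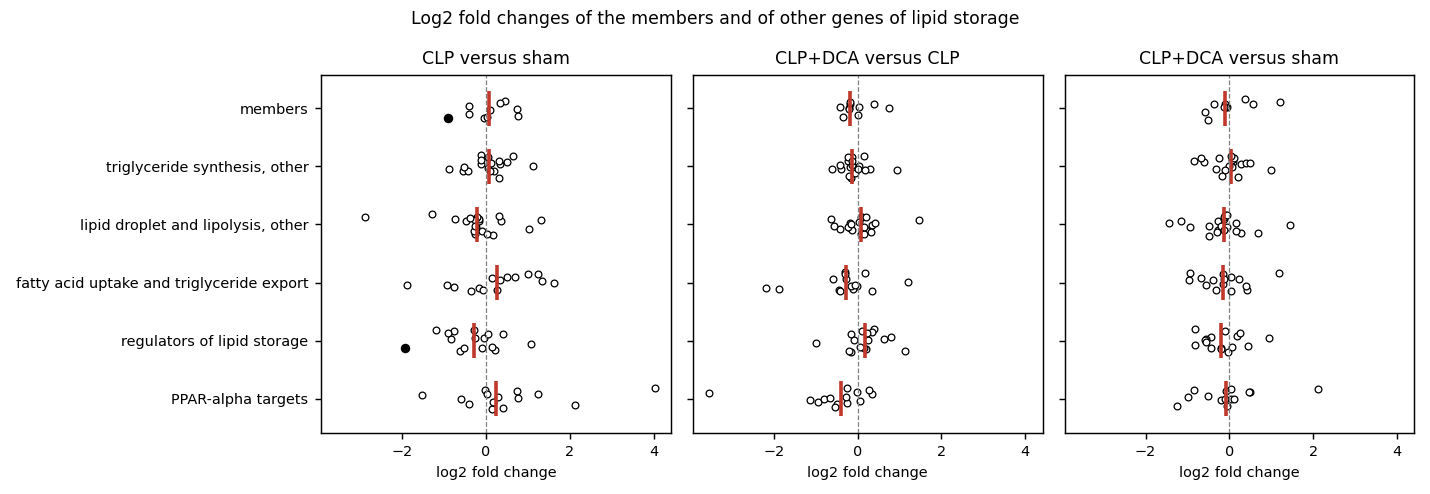
Log2 fold changes of the members and of 5 lists of other lipid storage genes in the 3 contrasts. Each circle is a gene, filled circles have an adjusted p under 0.05 (*Gpat4* and *Srebf1* in CLP versus sham), and red bars are list medians.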

How the data were processed

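The deposited table holds read counts per gene for 12 whole livers. The authors made poly(A)-enriched libraries, read 100 bp paired ends, aligned reads to mm10 with STAR (2.5) and counted them with featureCounts (Subread 1.5.0-p1), without normalization. The annotation and the strand setting are not given in the sources used here. Each mouse was 1 replicate, grouped by its label; no batch is labelled. Counts were filtered with filterByExpr (minimum count 10), TMM-normalized and tested with robust edgeR 4.0.16 (R 4.3.3) on all 12 mice at an FDR of 0.05, without a replicate block. SE is the log2 fold change divided by the square root of F. Log2 CPM used a prior count of 2. The 5 within-mouse ratios were tested by exact permutation. Scripts were tested on simulated data. The alternatives used DESeq2 1.42.0, voom (limma 3.58.1), other scalings, no filter, the block and leaving out each mouse. Depth was 24436513 to 44266819 reads; reads carry no molecular identifiers, and the SD between mice includes counting error. The members and lists were chosen with earlier results of these data known. Named were all members, every called gene of each list or else its 2 smallest p in CLP versus sham, *G0s2*, *Abhd5* and *Hilpda*, and the 3 profiles nearest to a called member, 1 of which is not reported here.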

Additional observations from a re-analysis of the deposited data

Results flagged for a closer look

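One value was set apart from its group. Of 30 groups of 4 mice examined, 10 members in 3 groups, *Gpat4* in sham had 1 mouse far from the others, sham replicate 4 with 277.9 CPM against 202 to 208 CPM in the remaining sham mice. The gap was 0.92 of the group's range, past Dixon's 95% critical value, and chance sets apart about 1 in 20 such groups. Without this mouse the log2 fold change of *Gpat4* in CLP versus sham was -0.77 (SE 0.17, adjusted p = 0.0862 by edgeR).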

How the results depend on the processing

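Leaving out 1 mouse changed the number of members called in CLP versus sham from 1 to between 0 and 3. The number of pathway genes called went from 1 to between 0 and 22 and that of all genes from 367 to between 10 and 3157. Both were highest without CLP+DCA replicate 3, and the genes tested can differ between fits. For CLP+DCA versus CLP the pathway count was between 0 and 4, beside between 0 and 616 of all genes. Of members in CLP versus sham, DESeq2 called 2 with 12 mice and 3 with the 8 of the comparison, edgeR on the 8 mice 3, voom 3 and an FDR of 0.10 gave 2. Of pathway genes in CLP versus sham, DESeq2 called 15 with 12 mice and 28 with 8, edgeR on the 8 mice 16, voom 25, an FDR of 0.10 gave 15, and library size alone and no filter 0 each. All-gene calls of these 7 fits were 1906, 3422, 2387, 3453, 2022, 209 and 122, in this order. The fits did not all test the same genes, and DESeq2 tested 14255 with 12 mice and 14755 with 8. Against CLP, CLP+DCA had voom calls of 2 members (*Gpat4* and *Lpin1*) and 8 pathway genes, and a DESeq2 call of 1 pathway gene with 8 mice, beside 1341 and 80 of all genes. Against sham, DESeq2 with 12 mice called 2 members and 2 pathway genes, DESeq2 on the 8 mice 4 pathway genes, and voom 2 members (*Gpam* and *Lpin1*) and 3 pathway genes, beside 243, 169 and 496 of all genes. The cause of these differences was not tested.

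With the replicate number as a block, 0 members were called in CLP versus sham (*Gpat4* at -0.88, adjusted p = 0.0749), beside 46 of all genes. The labels do not say whether the numbers pair the mice. Deviations of same-numbered mice correlated between -0.05 and 0.09 in CLP versus sham and between -0.16 and 0.09 in CLP+DCA versus sham. In CLP+DCA versus CLP these correlations were between -0.46 and 0.55. Differently numbered mice were not compared in this way, so the values cannot settle whether the mice were paired. Of the 600 log2 fold changes of members that the alternatives gave, 29 reversed in sign. *Dgat1* in CLP+DCA versus CLP was 0.00033 and 0.0058 with DESeq2 on 12 and 8 mice, 0.12 with library size alone, 0.0081 without a filter, 0.0038 with the block and 0.061 with voom. *Dgat2* and *Pnpla2* in CLP versus sham were -0.093 and -0.11 with library size alone. With voom, *Pnpla2* was -0.099 there, *Plin2* -0.61 in CLP+DCA versus sham, *Abhd5* -0.026 and *Hilpda* -0.87 in CLP+DCA versus CLP, and *Hilpda* -0.095 and *Pdk4* -0.48 in CLP+DCA versus sham. With the block, *Hilpda* was -0.078 in CLP+DCA versus CLP and *Pdk4* -0.31 in CLP+DCA versus sham.

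Leave-one-out ranges that include a reversal were, in CLP+DCA versus CLP, -0.050 to 0.093 for *Dgat1*, -0.10 to 0.23 for *Lpin2*, -1.16 to 0.060 for *Plin2*, -0.28 to 0.087 for *Pnpla2*, -0.013 to 0.065 for *Abhd5* and -0.98 to 0.78 for *Hilpda*. Against sham, CLP+DCA had ranges of -0.31 to 0.25 for *Cidec*, -0.42 to 0.64 for *Plin2* and -0.74 to 0.77 for *Pdk4*, and CLP had -0.22 to 0.14 for *Pnpla2*. Log2 ratios reversed for *Dgat2* to *Dgat1* (-0.14 to 0.016) and *Gpam* to *Gpat4* (-0.33 to 0.079) in CLP+DCA versus sham and for *Plin2* to *Plin5* in CLP versus sham (-0.31 to 0.022).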

Other observations

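Among the 16 regulators of lipid storage, several beyond *Srebf1* were at unadjusted p values under 0.05 in CLP versus sham without passing the FDR, and the genes named here were chosen after their values were seen. *Mlxipl*, which encodes the glucose-responsive factor ChREBP, was at -1.19 (SE 0.34, adjusted p = 0.0695 from edgeR), and *Ppargc1b*, a coactivator, was at -0.91 (SE 0.26, adjusted p = 0.0691). *Ppara*, the receptor for fatty acids whose targets form another list, was at -0.83 (SE 0.27, adjusted p = 0.0869), while the median of its 14 listed targets was 0.23. *Insig2*, which retains SREBP in the endoplasmic reticulum, was at 1.06 in CLP versus sham (SE 0.32, adjusted p = 0.0756). *Cebpb*, a factor of the acute phase and of gluconeogenesis, was at 0.15 in CLP versus sham (SE 0.28, adjusted p = 0.730) and at 0.95 in CLP+DCA versus sham (SE 0.28, adjusted p = 0.273).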
